A study of Mus musculus with 12 samples.

Results

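Egr1, Egr2, Egr3, Nr4a1, Nr4a2, Nr4a3, Ier2, Ier3, Ier5 and Myc, 10 genes of the early transcriptional response, were followed in mouse lung as the EGR, NR4A and IER factors with Myc. They were taken by their symbols from a table of 22180 named genes measured on one-colour Affymetrix arrays, where each of the 10 is represented by 1 probe, so that no choice among probes was needed. The arrays held RNA from whole lung of 12 female mice aged 10 weeks, 1 array per mouse and 3 mice in each of 4 groups. The groups were Zmpste24-/- mice after mechanical ventilation, wild type mice after mechanical ventilation, Zmpste24-/- mice left intact (baseline) and wild type mice left intact. Zmpste24 encodes the metalloprotease that removes the farnesylated end of prelamin A, and mice without it keep that precursor and age early. The ventilator drove 100 breaths each minute for 2.5 hours on room-air oxygen (FiO2 0.21), inflating to 15 cmH2O and letting the airway fall to zero end-expiratory pressure (ZEEP). The labels give no strain and name no sham procedure for the intact mice, so that ventilation and the handling that goes with it cannot be told apart.

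As background, these genes are induced within minutes of a stimulus because their transcription needs no new protein: growth factors, stretch, calcium and stress reach them through MAP kinases, serum response factor with its ternary complex partners, and the cyclic AMP response element (CRE) binding protein. The EGR proteins are zinc finger transcription factors, the NR4A proteins are orphan nuclear receptors that act without a known natural ligand, and MYC is a bHLH transcription factor that drives ribosome production and growth. The IER genes encode small proteins of several kinds, and Ier3 is also known as an anti-apoptotic target of NF-kB. In lung, Egr1 is known for its induction by mechanical stretch, hypoxia and injury. The messages are known to be short-lived. With levels from 1 time only, a brief pulse cannot be told from a lasting rise.

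Promoter windows from 250 bases before to 50 bases after a start site were available in the RefSeq table (GRCm38.p6) for 6 of the 10 genes, Egr2, Nr4a1, Nr4a2, Nr4a3, Ier3 and Ier5. Windows of the NR4A genes and Egr2 are shown because they hold the letters through which signal-driven factors are known to act on early genes. Capitals mark the CRE core, TGACG on either strand (CGTCA when read on the printed strand), and in Egr2 also the CArG box, the element that serum response factor binds. The windows lie at chr15:101266596-101266895, plus strand, chr2:57123954-57124253, minus strand, chr4:48045055-48045354, plus strand and chr10:67537619-67537918, plus strand, and each is written 5′ to 3′ along the gene.
Nr4a1: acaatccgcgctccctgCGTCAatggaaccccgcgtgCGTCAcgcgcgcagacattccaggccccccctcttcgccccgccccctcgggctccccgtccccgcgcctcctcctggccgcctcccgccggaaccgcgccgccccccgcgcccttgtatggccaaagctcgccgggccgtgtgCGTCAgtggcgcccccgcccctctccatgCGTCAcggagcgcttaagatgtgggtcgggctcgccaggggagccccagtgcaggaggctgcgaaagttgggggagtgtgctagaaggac
Nr4a2: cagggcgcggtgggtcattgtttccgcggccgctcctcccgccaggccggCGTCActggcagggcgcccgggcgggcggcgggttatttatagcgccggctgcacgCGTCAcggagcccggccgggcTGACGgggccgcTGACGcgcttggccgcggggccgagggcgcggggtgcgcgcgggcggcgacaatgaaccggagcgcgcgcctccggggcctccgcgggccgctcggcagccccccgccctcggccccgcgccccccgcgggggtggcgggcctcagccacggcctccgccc
Nr4a3: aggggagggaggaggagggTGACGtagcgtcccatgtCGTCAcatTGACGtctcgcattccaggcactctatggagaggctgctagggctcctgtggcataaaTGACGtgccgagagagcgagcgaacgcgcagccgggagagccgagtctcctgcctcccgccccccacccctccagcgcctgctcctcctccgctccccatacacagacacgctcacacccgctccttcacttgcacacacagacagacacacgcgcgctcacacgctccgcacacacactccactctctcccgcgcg
Egr2: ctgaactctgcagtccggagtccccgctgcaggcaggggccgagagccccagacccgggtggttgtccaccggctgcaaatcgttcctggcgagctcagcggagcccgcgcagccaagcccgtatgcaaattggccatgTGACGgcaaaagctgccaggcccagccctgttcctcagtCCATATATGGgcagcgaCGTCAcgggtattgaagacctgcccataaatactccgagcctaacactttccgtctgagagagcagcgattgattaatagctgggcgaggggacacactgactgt

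Each NR4A window held 4 CRE cores, a number reached by 0.231% of the 32851 windows of that length in the table, while 20.8% held at least 1. The count of 4 was picked after these windows had been read. In Nr4a1 the cores started 233, 213, 69 and 40 bases before the start site, in Nr4a2 at 200, 144, 123 and 111 bases, and in Nr4a3 at 231, 213, 205 and 147 bases. The Egr2 window had 1 CArG box 72 bases before the start and CRE cores at 111 and 55 bases, and a CArG box was found in 1.63% of all windows. RefSeq lists 5 start sites for Egr2, 3 of them within overlapping windows, and the earliest of those 3 was printed. The complete CRE, TGACGTCA, which contains the core on both strands, was in none of the 6 genes' windows and in 1.79% of all windows. An EGR site (GCGTGGGCG or GCGGGGGCG, both strands) was found in Nr4a1, 60 bases before the start, and in 3.47% of all windows. The NR4A monomer site AAAGGTCA, on either strand, was in none of the 6 genes' windows and in 1.51% of all, and the MYC E box CACGTG was only in an Egr2 window that is not printed, against 7.15% of all. A TATAA core stood 26 bases before the start of Ier5, 58 bases before that of Ier3 and 11 bases before the start in an Egr2 window that is not printed, and 17.5% of all windows held one. None of the marked elements overlapped each other. These matches describe letters in a window and were not tied to any measurement of binding.

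**Figure D1:**
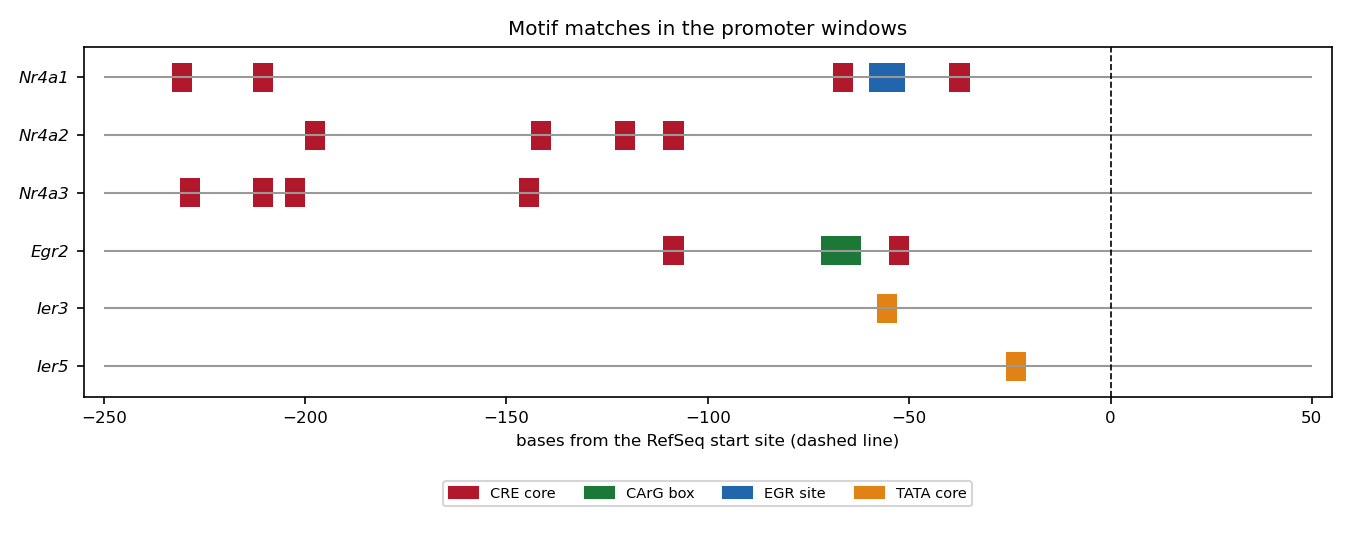
Positions of motif matches in the promoter windows of 6 early genes, in bases from the RefSeq start site (horizontal axis, dashed line at the start), with 1 row per gene. Coloured boxes are CRE cores, CArG boxes, EGR sites and TATAA cores, and the NR4A rows hold 4 CRE cores each.

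The targeted gene followed the labels. Zmpste24 stood at 5.01, 5.73 and 5.43 in Zmpste24-/- ventilated lungs (log2 values of arrays 1 to 3, here and below), against 8.50, 9.28 and 8.91 in wild type ventilated lungs. At baseline it stood at 5.91, 5.31 and 5.44 in Zmpste24-/- lungs and 9.0, 9.02 and 8.50 in wild type lungs. Array medians lay between 5.35 and 5.42, and Sftpc of alveolar type 2 cells (13.02 to 13.25), Ager of type 1 cells (12.11 to 12.59), Scgb1a1 of club cells (13.12 to 13.30) and Cldn5 of endothelium (8.36 to 9.69) were high on all 12 arrays. Every value of the 10 early genes lay above the median of its array, but no background level was set. In whole lung, more cells of a type and more RNA per cell cannot be told apart.

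Ventilation went with higher levels of nearly the whole group in Zmpste24-/- lungs and of a few of its genes in wild type lungs. In Zmpste24-/- lungs 9 of the 10 genes rose and none fell, led by Egr1 at 7.05-fold, Myc at 5.95-fold and Nr4a3 at 4.49-fold. Across all 22180 genes 8.89% rose and 7.52% fell in this comparison (limma, Benjamini-Hochberg adjusted p under 0.05). In wild type lungs 3 of the 10 rose, Myc at 2.59-fold, Nr4a3 at 2.49-fold and Ier5 at 1.43-fold, and none fell, where 3.67% of all genes rose and 3.53% fell. The median log2 fold change of the 10 was 1.70 in Zmpste24-/- lungs, where that of all genes was -0.0074, and 0.48 in wild type lungs, where that of all genes was -0.013. Increases of at least 2-fold that passed the test numbered 8 of 10 in Zmpste24-/- lungs (1.18% of all genes) and 2 of 10 in wild type lungs (0.428% of all genes). All 3 ventilated arrays lay above all 3 baseline arrays for 10 of the 10 genes in Zmpste24-/- lungs (16.6% of all genes) and for Nr4a3, Ier3, Ier5 and Myc in wild type lungs (10.8% of all genes).

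**Figure D2:**
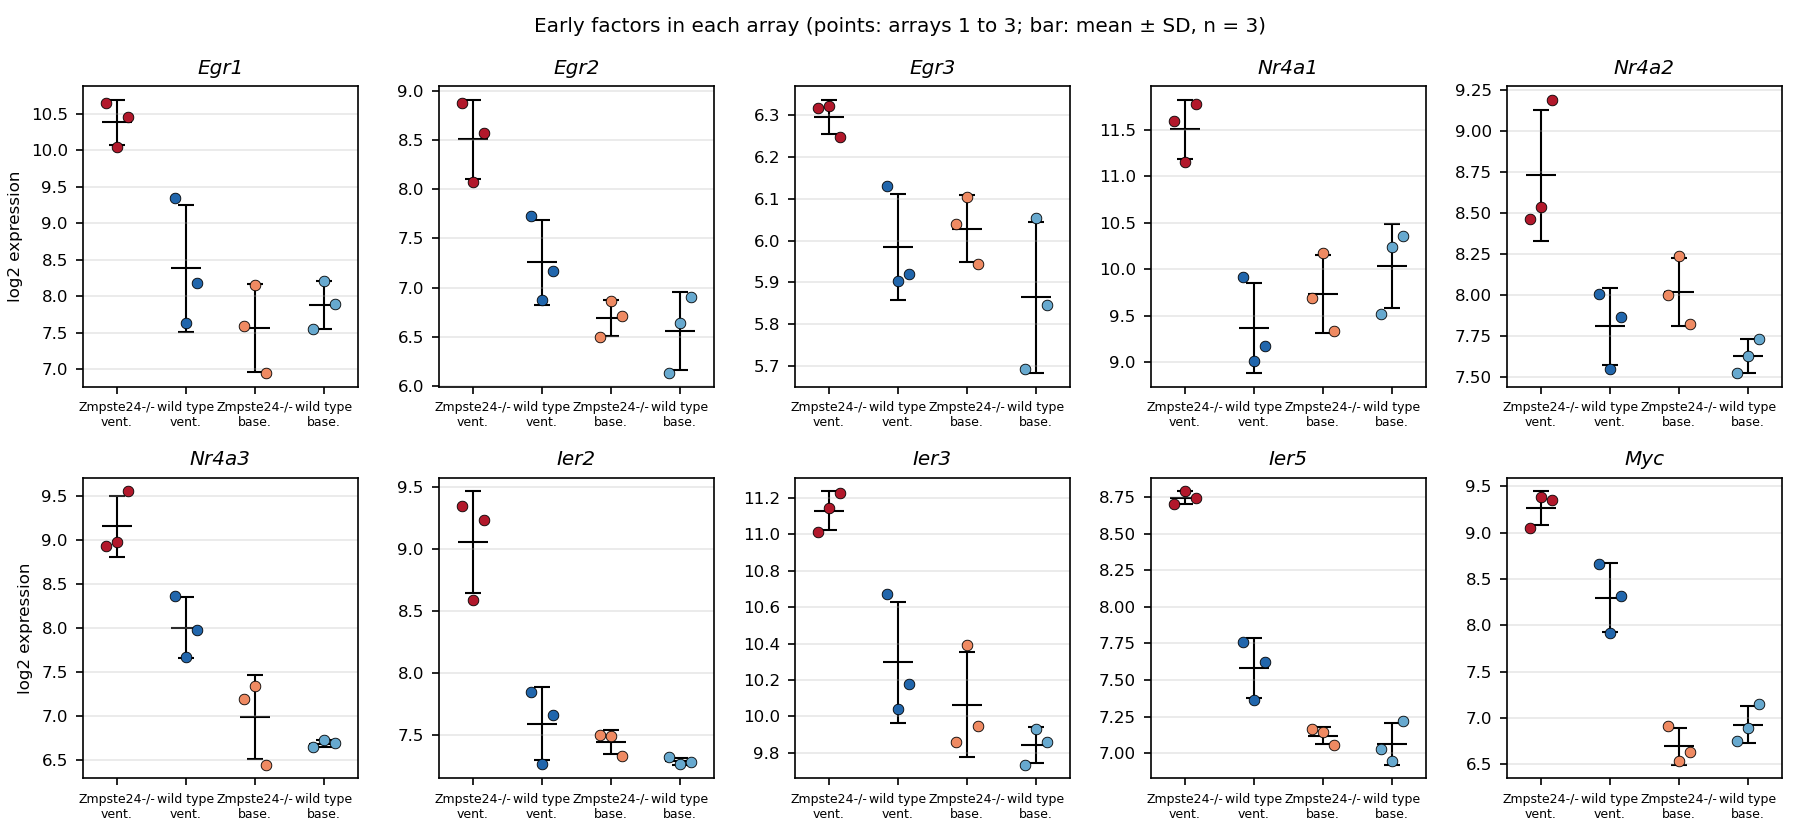
Log2 expression (vertical axis) of the 10 early genes, 1 panel per gene with its own scale, in ventilated and baseline lungs of both genotypes. Points are arrays 1 to 3 of a group and bars the mean ± SD (n = 3), and the Zmpste24-/- ventilated arrays lie above all 9 other arrays in every panel.

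Egr1, the stretch- and injury-induced zinc finger factor, had values of 10.65, 10.04 and 10.46 in Zmpste24-/- ventilated lungs, against 7.59, 8.16 and 6.95 in Zmpste24-/- baseline lungs. Wild type arrays had 9.34, 7.63 and 8.18 after ventilation, against 7.56, 8.21 and 7.89 at baseline. The Zmpste24-/- groups were far apart, while the wild type groups overlapped because ventilated arrays 2 and 3 lay within the baseline range, with array 1 above it. Its log2 fold change was 2.82 ± 0.37 in Zmpste24-/- lungs (± standard error, n = 3 per group, as for every change below; adjusted p = 0.000172) and 0.50 ± 0.37 in wild type lungs (adjusted p = 0.509, 95% interval -0.30 to 1.29). Without wild type ventilated array 1 the wild type value was 0.018, so that 1 array carried most of it.

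Egr2, a factor known from myelinating Schwann cells and from T cell and macrophage activation, stood at 8.88, 8.08 and 8.57 in Zmpste24-/- ventilated lungs, against 6.50, 6.87 and 6.71 in Zmpste24-/- baseline lungs. Wild type lungs had 7.73, 6.88 and 7.17 when ventilated, against 6.13, 6.64 and 6.91 at baseline. It rose by 1.81 ± 0.24 in Zmpste24-/- lungs (adjusted p = 0.000186), and its change of 0.70 ± 0.24 in wild type lungs did not pass (adjusted p = 0.104), with 1 ventilated array inside the baseline range. Egr3, a factor of muscle spindle development and of lymphocyte activation, was the least changed of the 10 in Zmpste24-/- lungs. Its values were 6.32, 6.32 and 6.25 in Zmpste24-/- ventilated lungs, against 6.04, 6.10 and 5.94 in Zmpste24-/- baseline lungs. For wild type lungs they were 6.13, 5.90 and 5.92 after ventilation, against 5.69, 6.05 and 5.85 at baseline. All of these lie within 1 log2 unit of the array medians. The Egr3 changes of 0.27 ± 0.10 in Zmpste24-/- lungs and 0.12 ± 0.10 in wild type lungs did not pass (adjusted p = 0.0895 and 0.563). The first passed under quantile normalization (adjusted p = 0.0371), with only the 2 groups fitted (0.0461) and with array weights (0.0282).

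Among the NR4A receptors, whose promoter windows each carry 4 CRE cores, Nr4a1 was the one whose mean changes had opposite signs in the genotypes. Nr4a1, an early gene of T cell receptor and stress signalling, stood at 11.59, 11.16 and 11.78 in Zmpste24-/- ventilated lungs, against 9.70, 10.18 and 9.33 in Zmpste24-/- baseline lungs. In wild type ventilated lungs it stood at 9.92, 9.01 and 9.17, against 9.52, 10.24 and 10.36 in wild type baseline lungs. Ventilated arrays were thus all higher than baseline arrays in Zmpste24-/- lungs, while in wild type lungs 2 of 3 ventilated arrays lay below the whole baseline range. The increase in Zmpste24-/- lungs was 1.77 ± 0.27 (adjusted p = 0.000634), and the wild type value of -0.67 ± 0.27 did not pass (adjusted p = 0.182).

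Nr4a2, known for its part in dopamine neurons and as a cyclic AMP responsive gene, had 8.46, 8.53 and 9.19 in Zmpste24-/- ventilated lungs, against 7.997, 8.24 and 7.82 in Zmpste24-/- baseline lungs. Its wild type values were 8.005, 7.55 and 7.87 after ventilation, against 7.52, 7.62 and 7.73 at baseline. The Zmpste24-/- change of 0.71 ± 0.18 passed (adjusted p = 0.0131), but not without Zmpste24-/- ventilated array 3 (adjusted p = 0.051) or baseline array 3 (adjusted p = 0.0624). In wild type lungs the change was 0.18 ± 0.18 (adjusted p = 0.634), and the groups overlapped. Nr4a3, the receptor also called NOR1, rose in both genotypes. It stood at 8.94, 8.98 and 9.56 in Zmpste24-/- ventilated lungs, against 7.19, 7.34 and 6.45 in Zmpste24-/- baseline lungs. Wild type lungs showed 8.36, 7.67 and 7.97 after ventilation, against 6.64, 6.72 and 6.69 at baseline. Neither genotype had any overlap between its ventilated and baseline arrays. The increases of Nr4a3 were 2.17 ± 0.23 in Zmpste24-/- lungs (adjusted p = 3e-05) and 1.32 ± 0.23 in wild type lungs (adjusted p = 0.00329).

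All 3 IER genes rose in Zmpste24-/- lungs. Ier2, which encodes a nuclear protein induced by growth factors, stood at 9.35, 8.58 and 9.23 in Zmpste24-/- ventilated lungs, against 7.50, 7.49 and 7.33 in Zmpste24-/- baseline lungs. Wild type ventilated lungs had 7.84, 7.26 and 7.66, against 7.32, 7.26 and 7.28 in wild type baseline lungs, so that 1 ventilated array lay within the baseline range. Ier2 rose by 1.61 ± 0.17 in Zmpste24-/- lungs (adjusted p = 4.24e-05), and its wild type change of 0.30 ± 0.17 did not pass (adjusted p = 0.37).

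Ier3, the anti-apoptotic NF-kB target, had 11.02, 11.15 and 11.23 in Zmpste24-/- ventilated lungs, against 9.86, 10.39 and 9.94 in Zmpste24-/- baseline lungs. Wild type arrays gave 10.67, 10.04 and 10.18 after ventilation, against 9.73, 9.93 and 9.86 at baseline, with no overlap. The Zmpste24-/- increase was 1.06 ± 0.16 (adjusted p = 0.000486), and the wild type change of 0.46 ± 0.16 missed the threshold (adjusted p = 0.111, 95% interval 0.11 to 0.80). Ier5, known as a regulator of the heat shock factor HSF1, stood at 8.70, 8.79 and 8.74 in Zmpste24-/- ventilated lungs, against 7.16, 7.14 and 7.06 in Zmpste24-/- baseline lungs. Its wild type values were 7.76, 7.36 and 7.63 after ventilation, against 7.03, 6.95 and 7.22 at baseline. Both pairs of groups were separate. Ier5 rose by 1.62 ± 0.10 in Zmpste24-/- lungs (adjusted p = 8.49e-07) and by 0.52 ± 0.10 in wild type lungs (adjusted p = 0.0084), and the wild type call was lost with only the 2 groups fitted (adjusted p = 0.0507).

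Myc, the growth and ribosome biogenesis factor, stood at 9.06, 9.39 and 9.35 in Zmpste24-/- ventilated lungs, against 6.92, 6.53 and 6.63 in Zmpste24-/- baseline lungs. Wild type arrays stood at 8.66, 7.92 and 8.32 after ventilation, against 6.75, 6.89 and 7.14 at baseline. In both genotypes the lowest ventilated array lay above the highest baseline array. The increases were 2.57 ± 0.17 in Zmpste24-/- lungs (adjusted p = 1.11e-06) and 1.37 ± 0.17 in wild type lungs (adjusted p = 0.000394).

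**Figure D3:**
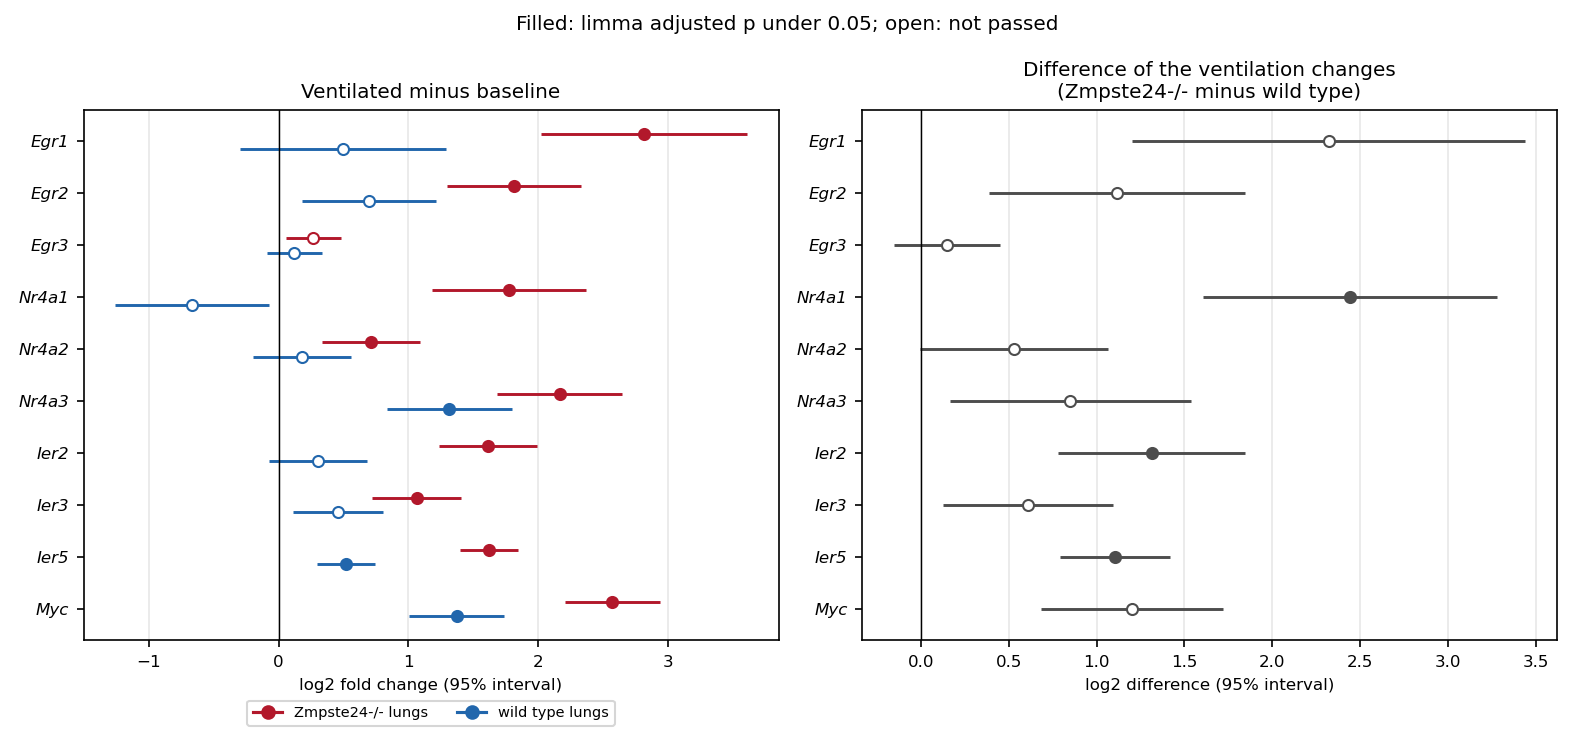
Left, log2 fold change of each early gene between ventilated and baseline lungs (horizontal axis) with its 95% interval, for Zmpste24-/- and wild type lungs. Right, the difference of those 2 changes, and filled points passed a limma adjusted p of 0.05, which 9, 3 and 3 of the 10 genes did in Zmpste24-/- lungs, wild type lungs and the difference.

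Whether ventilation acted differently in the genotypes was tested as the difference of the 2 changes, Zmpste24-/- minus wild type. That difference was above 0 for 10 of 10 genes, with a median of 1.11 where that of all genes was 0.013, and 3 of 10 passed upward and none downward, where 0.266% of all genes did upward and 0.0496% downward. All 3 were over 2-fold, as were 0.135% of all genes. They were Nr4a1 (2.44 ± 0.39, adjusted p = 0.03), Ier2 (1.31 ± 0.25, adjusted p = 0.0441) and Ier5 (1.10 ± 0.15, adjusted p = 0.0125). Myc (1.20 ± 0.24, adjusted p = 0.0575) and Egr1 (2.32 ± 0.52, adjusted p = 0.079) missed the threshold, and Egr1 had a 95% interval of 1.20 to 3.44. The remaining 5 had adjusted p-values of 0.191 to 0.762, and the intervals of Egr3 (-0.16 to 0.45) and Nr4a2 (-0.0062 to 1.06) included 0. Ier5 was the only one of the 3 that passed in every alternative and with any 1 array left out (largest adjusted p = 0.0443). Nr4a1 lost its call without any 1 of 7 arrays (adjusted p up to 0.0945) or with an intensity trend and robust moderation, and Ier2 without any 1 of 10 (up to 0.123) or with quantile normalization. Myc passed with low genes left out, by a 25th percentile floor (0.0445) or a median floor (0.0346), and with array medians subtracted (0.0405), an intensity trend and robust moderation (0.0398) or array weights (0.0259), all adjusted p. It also passed without wild type baseline array 1 (0.0492) or wild type ventilated array 1 (0.0198). Egr1 passed with genes under the median left out (0.0471), with array weights (0.0447) and without wild type ventilated array 1 (0.0126).

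Intact lungs of the genotypes showed no early gene past the threshold. None of the 10 passed in either direction in limma, where 2.2% of all genes passed as higher and 4.11% as lower in Zmpste24-/- lungs, and 1, Nr4a2 (0.39 ± 0.18), had an unadjusted p under 0.05. Its adjusted p was 0.218. The differences ran from -0.32 for Egr1, which had a 95% interval of -1.12 to 0.47, to 0.39 for Nr4a2. The narrowest limits were those of Egr3 (-0.05 to 0.38) and Ier5 (-0.16 to 0.28). Nr4a2 and Ier2 were the members with every Zmpste24-/- array above every wild type array, which 9.67% of all genes also showed.

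After ventilation the genotypes separated. Zmpste24-/- lungs had 9 of 10 genes higher and none lower than wild type lungs, where 4.72% of all genes were higher and 6.08% lower, and 6 of the 9 by at least 2-fold (0.419% of all genes). The 3 Zmpste24-/- arrays lay above the 3 wild type arrays for 10 of 10 genes, which held for 14.8% of all genes. Nr4a1 differed most, by 2.14 ± 0.27 (4.41-fold, adjusted p = 0.000439), followed by Egr1 at 1.998 ± 0.37 (adjusted p = 0.00392), Ier2 at 1.47 ± 0.17 (adjusted p = 0.000275) and Egr2 at 1.25 ± 0.24 (adjusted p = 0.00493). Ier5 (1.16 ± 0.10) and Nr4a3 (1.15 ± 0.23) were also over 2-fold higher. Myc (0.97 ± 0.17), Nr4a2 (0.92 ± 0.18) and Ier3 (0.83 ± 0.16) were higher by less than that. Egr3, at 0.31 ± 0.10, did not pass (adjusted p = 0.0634), though it did with array medians subtracted, quantile normalization or array weights (adjusted p = 0.0345, 0.0275 and 0.0238). This comparison shares its ventilated arrays with those above and is not independent of them.

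**Figure D4:**
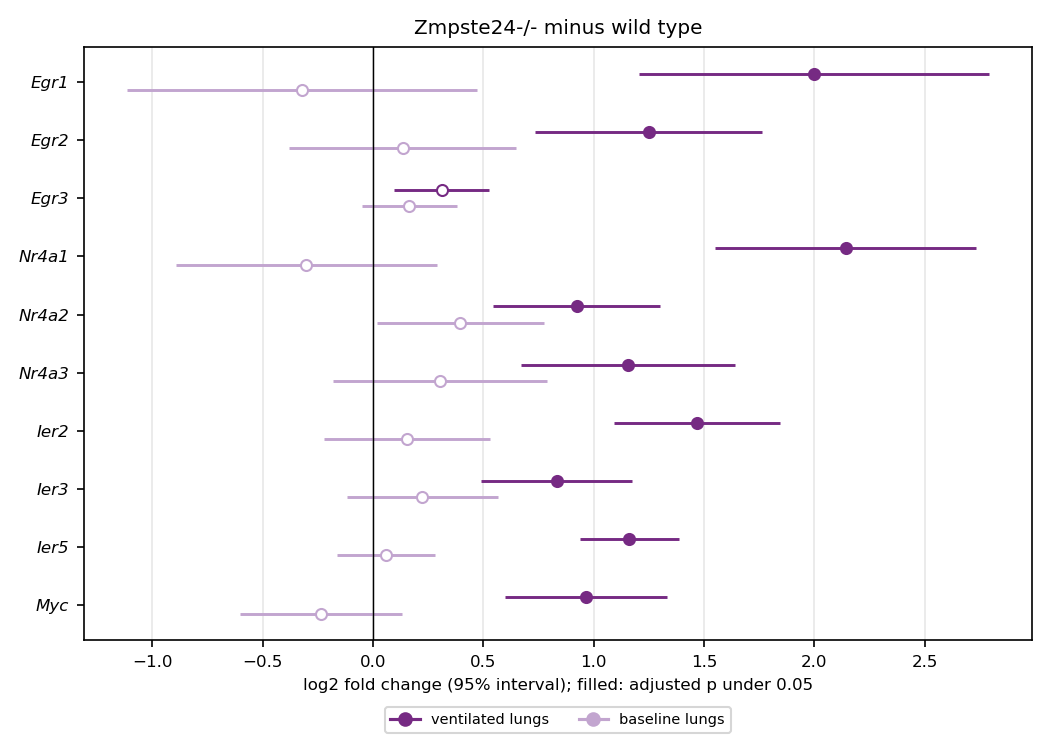
Log2 difference between Zmpste24-/- and wild type lungs (horizontal axis) of each early gene with its 95% interval, in ventilated and in baseline lungs. Filled points passed a limma adjusted p of 0.05, as 9 of 10 genes did in ventilated lungs and none in baseline lungs.

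Some arrays stood high or low for many of the genes. In wild type ventilated lungs array 1 held the highest value of 10 of the 10 genes and array 2 the lowest of 10. In Zmpste24-/- baseline lungs array 3 held the lowest value of 7 genes, and in wild type baseline lungs array 1 held the lowest of 8. How often these arrays held the highest or lowest value over all genes was not counted. The order of the group means was Zmpste24-/- ventilated first for every gene, without overlap with the next group. The share of all genes with that order was not counted. Zmpste24-/- ventilated arrays lay above all Zmpste24-/- baseline arrays for 16.6% of all genes and above all wild type ventilated arrays for 14.8%. Wild type ventilated came next for Egr1, Egr2, Nr4a3, Ier2, Ier3, Ier5 and Myc, and for Egr1, Ier2 and Ier3 it overlapped with the group below it. For Egr3 and Nr4a2 the next group was Zmpste24-/- baseline and for Nr4a1 wild type baseline, and from there down these 3 genes overlapped at each step.

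Neutrophil markers also rose with ventilation. All 8 of the list rose in Zmpste24-/- lungs and 4 in wild type lungs, and 6 were higher in Zmpste24-/- than in wild type ventilated lungs. In intact lungs 1 of the 8 was higher in Zmpste24-/- lungs (list median 0.58), while no early gene passed there (median 0.14). For the difference of the changes 0 of the 8 markers passed (list median 0.51), where 0.266% of all genes passed upward and the median of all genes was 0.013. Their mean log2 level per array was 8.85 to 8.99 in Zmpste24-/- ventilated lungs, 7.52 to 8.06 in wild type ventilated lungs, 6.89 to 7.75 in Zmpste24-/- baseline lungs and 6.51 to 7.18 in wild type baseline lungs. The wild type ventilated array with the highest marker level (8.06, against 7.52 and 7.53) was array 1, the one highest in all 10 early genes. In wild type baseline lungs array 1 was the highest in neutrophil markers (7.18, against 6.82 and 6.51) and the lowest in 8 early genes. Endothelial markers fell in 7 of 9 after ventilation in Zmpste24-/- lungs and in 8 in wild type lungs. Their level was 9.42 to 9.59 in Zmpste24-/- ventilated, 9.54 to 9.61 in wild type ventilated, 9.82 to 10.01 in Zmpste24-/- baseline and 10.15 to 10.18 in wild type baseline lungs. In ventilated lungs, 4 of 6 T and NK and 3 of 3 B cell markers were lower in Zmpste24-/- than in wild type lungs. So were 4 of 7 fibroblast and smooth muscle markers, and 1 of the 7 was higher. The same lists were already lower in intact Zmpste24-/- lungs in 4 of 6, 2 of 3 and 2 of 7 markers. Ventilated Zmpste24-/- lungs also had 2 of 6 alveolar type 1 and 1 of 9 endothelial markers higher, with 2 of the 9 lower. Of macrophage and monocyte markers 1 of 9 was higher and 1 lower, and 1 of 8 alveolar type 2 and 1 of 2 platelet markers were lower. In intact Zmpste24-/- lungs 3 of 9 endothelial, 3 of 9 macrophage and monocyte and 1 of 2 platelet markers were lower. The part of these cell types in the early genes was not tested. In Zmpste24-/- lungs, ventilation left macrophage and monocyte (0 of 9), club and ciliated (0 of 5) and platelet markers (0 of 2) without a call. The 2 were Pf4 and Ppbp, and the listed red cell markers were not measured. In the same comparison 1 of 8 alveolar type 2 and 1 of 6 type 1 markers fell. So did 2 of 7 fibroblast and smooth muscle, 2 of 6 T and NK and 2 of 3 B cell markers. Of the liver transcripts 0 of 6 were called for ventilation in Zmpste24-/- lungs, and 2 of 6 fell with ventilation in wild type lungs. In intact lungs 3 of 6 were lower in Zmpste24-/- than in wild type lungs. Their mean level was 5.71, 8.77 and 6.35 in wild type baseline arrays 1 to 3. In wild type ventilated arrays 1 to 3 it was 6.05, 5.11 and 4.77. Zmpste24-/- arrays had 4.52 to 4.62 when ventilated and 4.46 to 4.68 at baseline. The highest level was that of wild type baseline array 2. With that array left out, 3 early genes rose with ventilation in wild type lungs, as with it. Zmpste24-/- lungs kept their 9, but that comparison uses the array only through the shared estimate of spread. Its changes could therefore not move. For the difference of the changes, 1 early gene then passed against 3 with it: Ier5 did (adjusted p = 0.0175), while Nr4a1 (adjusted p = 0.086) and Ier2 (adjusted p = 0.112) did not, and 13 genes in all passed upward, against 59 with it.

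Related genes were counted in the same comparisons. Other early response genes, among them the AP-1 and KLF factors, rose in 19 of 24 and fell in 1 in ventilated Zmpste24-/- lungs (median 1.30), with the smallest adjusted p-values for Ptgs2 (4.43 ± 0.27), Atf3 (4.01 ± 0.25), Socs3 (2.14 ± 0.19) and Klf6 (0.98 ± 0.10). In wild type lungs 10 of 24 rose and 1 fell (median 0.41), with increases of Atf3 (2.48 ± 0.25), Ptgs2 (2.63 ± 0.27) and Maff (1.43 ± 0.16) and a decrease of Klf2 (-1.53 ± 0.16). Between genotypes 18 of 24 were higher and 0 lower in ventilated Zmpste24-/- lungs, and 4 passed for the difference of the changes, Fosb (2.86 ± 0.51), Btg2 (1.49 ± 0.26), Jun (1.28 ± 0.24) and Dusp5 (1.15 ± 0.22).

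The list of serum response and ternary complex factors was mixed and also held the CRE-linked genes Creb1, Crem and Crtc2. In ventilated Zmpste24-/- lungs 5 of its 9 measured genes rose. Among them were Srf, which binds the CArG box, at 1.38 ± 0.16 and Crem, a CRE-binding modulator, at 0.74 ± 0.10. Mrtfa (0.38 ± 0.10) and Elk4 (0.29 ± 0.083) rose less. For wild type lungs Srf (0.67 ± 0.16) and Crem (0.41 ± 0.10) rose and Elk3 (-0.53 ± 0.12) fell, and the other 6 did not pass. The list median was 0.29 in Zmpste24-/- lungs and -0.057 in wild type lungs. The corepressors of EGR proteins, Nab2 (1.03 ± 0.10, adjusted p = 1.55e-05) and Nab1 (0.67 ± 0.10, adjusted p = 0.000426), rose in ventilated Zmpste24-/- lungs. Nab2, itself known as an EGR-induced brake, also passed for the difference of the changes (0.91 ± 0.14, adjusted p = 0.0245), its wild type change being 0.13 ± 0.10 (adjusted p = 0.537). The other 4 genes listed with them were the family member Egr4 and the retinoid X receptors that pair with some NR4A proteins. None of these 4 passed in either ventilation comparison (list medians 0.019 in Zmpste24-/- and 0.036 in wild type lungs). The group means of Egr4 (4.45 to 4.64) and Rxrg (4.44 to 4.61) lay below the array medians, so that a change in them could be missed. Ier5l, the related IER gene measured here, changed by 0.18 ± 0.11 in Zmpste24-/- lungs and -0.10 ± 0.11 in wild type lungs, neither of which passed, and was higher in Zmpste24-/- than in wild type ventilated lungs (0.48 ± 0.11, adjusted p = 0.0109).

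Genes of MAP kinase signalling rose in 9 of 14 in Zmpste24-/- lungs (median 0.48) and in 3 of 14 in wild type lungs (median 0.11), none falling in either. The 4 with the smallest adjusted p-values in Zmpste24-/- lungs were the feedback inhibitors Spry4 (1.34 ± 0.17) and Spry2 (0.70 ± 0.092) and the kinases Map2k3 (1.02 ± 0.14) and Map3k8 (0.79 ± 0.12). In the MYC network, the partners and rivals of MYC for DNA, 4 of 12 rose and 2 fell in ventilated Zmpste24-/- lungs (median 0.11), with the repressor Mxd1 (0.68 ± 0.12), Mlx (0.55 ± 0.10), the obligate partner Max (0.29 ± 0.077) and, downward, the repressor Mxd4 (-0.38 ± 0.10). In wild type lungs 0 of 12 rose and 1, Mycl (-0.47 ± 0.13, adjusted p = 0.0489), fell (median 0.024). Mycl was also the other gene that fell in Zmpste24-/- lungs (-0.42 ± 0.13, adjusted p = 0.0425). The wild type means of Mycl, 4.78 after ventilation and 5.24 at baseline, lay below the array medians, so that the size of its change is uncertain. Known MYC targets rose in 9 of 15 and fell in 1 in ventilated Zmpste24-/- lungs (median 0.45), with the nucleolar genes Gnl3 (1.45 ± 0.13), Nop58 (1.41 ± 0.15) and Nop56 (0.79 ± 0.10) and the cap-binding factor Eif4e (0.65 ± 0.11). Among wild type lungs Gnl3 (0.78 ± 0.13) and Nop58 (0.84 ± 0.15) rose and the other 13 did not pass (median 0.24). In intact lungs, 5 genes of all these lists passed between the genotypes: Maff (0.58 ± 0.16), Odc1 (0.49 ± 0.13) and Npm1 (0.30 ± 0.084) were higher and Elk3 (-0.72 ± 0.12) and Mrtfa (-0.56 ± 0.10) lower in Zmpste24-/- lungs.

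**Figure D5:**
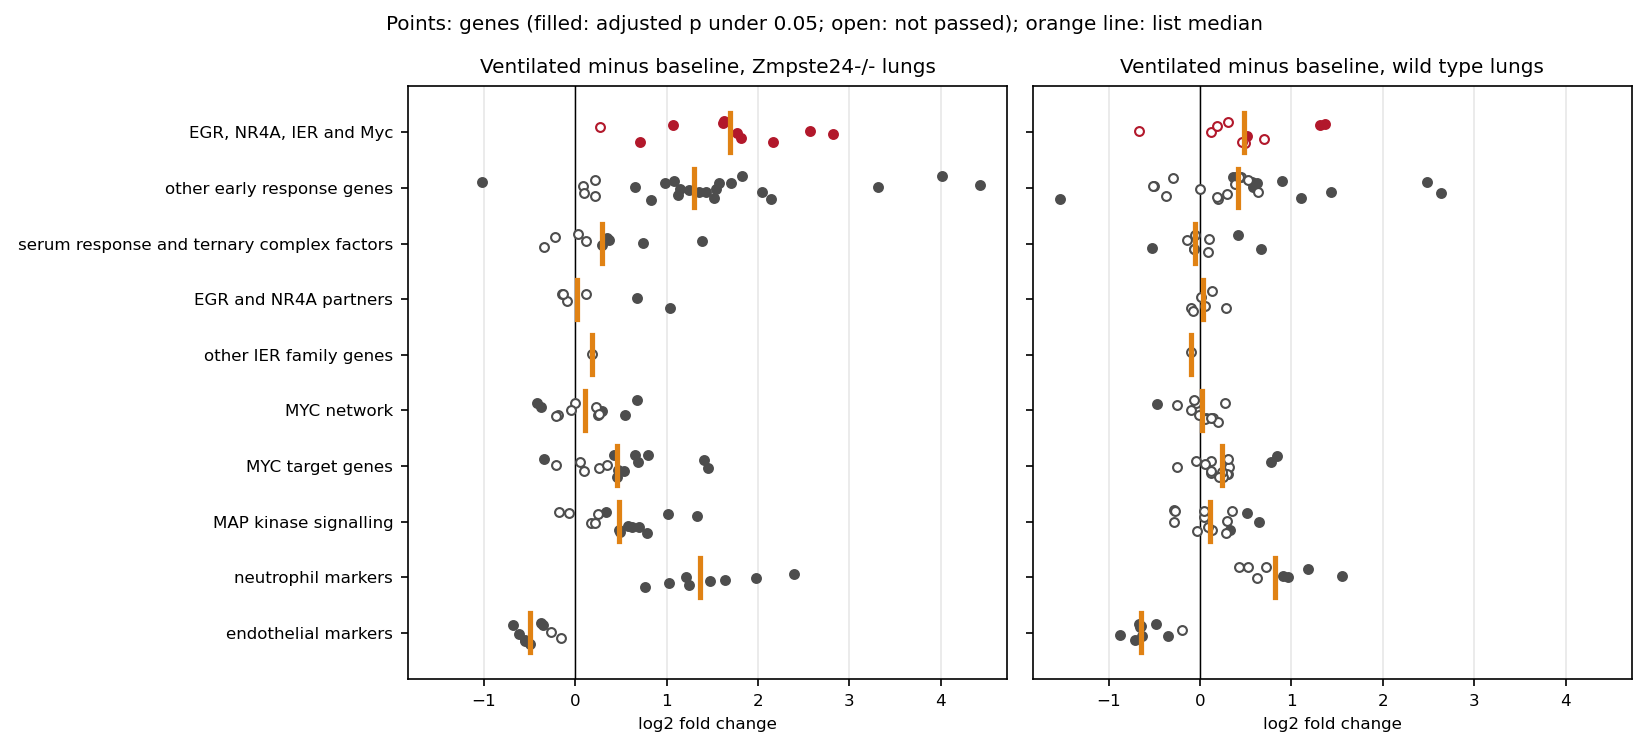
Log2 fold change between ventilated and baseline lungs (horizontal axis) of each gene in the early group (red), in 7 related lists and in 2 marker lists, for Zmpste24-/- and wild type lungs. Filled points passed a limma adjusted p of 0.05, and the orange lines, the list medians, stand at 1.70 for the early group in Zmpste24-/- lungs and 0.48 in wild type lungs.

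The genes most like the early group over the 12 arrays were found by their correlation with the mean of the 10 standardised members, given as a description because the arrays share their groups. Junb, an AP-1 subunit, had r = 0.983, Trem1, a receptor of neutrophils and monocytes, 0.982, Dnajb1, a co-chaperone induced by heat shock, 0.977, and Phf13 0.976. Klf6, an early zinc finger factor, had 0.974, Xbp1, a factor of the unfolded protein response, 0.972, the pseudokinase Trib1 0.971 and the AP-1 subunit Fosb 0.97. Within the group, Egr1 and Egr2 were each other's closest members (r = 0.947), as were Nr4a3 and Myc (0.947) and Ier2 and Ier5 (0.948). The lowest value of all pairs was that of Nr4a1 with Myc (0.608).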

How the data were processed

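Each of 12 mice gave whole-lung RNA for 1 Affymetrix array. The authors deposited normalized log2 expression values, with RMA and limma named per the submitters' processing notes, their versions and the genome build being not given in the sources used here. That the scale is log2 was read from the range of values. The annotation table pairs 23521 of 41345 probes with exactly 1 symbol and 1814 with more, and leaves 16010 unnamed here. Names were updated by gene identifier through RefSeq (GRCm38.p6, 23328 probes matched). For 22180 genes the probe of highest average signal stood for the gene.

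Group means were estimated jointly from the 12 arrays (limma 3.58.1, R 4.3.3; lmFit, then eBayes), leaving 8 residual degrees of freedom. Benjamini-Hochberg adjustment ran across all genes, and adjusted p under 0.05 counted as passed. The fit was tested on simulated data. With 3 arrays against 3, an exact permutation test of 1 gene cannot give p under 0.1. No scan dates or slides were given, so batches were not tested. Having 3 arrays a group limits the precision.

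The members, the 7 related lists and the 11 marker lists were chosen with earlier results of these data known. Named were all members, up to 4 genes per related list with the smallest adjusted p in a comparison, and the 8 genes most correlated with the members' mean (predicted genes and small RNAs left out). The Egr2 window, the single arrays named and the values of Nab2, Egr3 and Ier5l that did not pass were chosen after their values were seen. So were the group means of Mycl, Egr4 and Rxrg and the change of Mycl in Zmpste24-/- lungs. Replicate numbers showed no sign of pairing: same-numbered deviations from group means correlated at -0.15 to 0.15, and differently numbered ones at -0.25 to 0.23. These correlations cannot exclude a pairing or a shared batch. The alternatives were 2 filters on low genes, array medians subtracted, quantile normalization, only the compared groups, a replicate block, an intensity trend with robust moderation, array weights, the mean over a gene's probes and leaving out each array.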

Additional observations from a re-analysis of the deposited data

Results flagged for a closer look

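For 3 genes the ventilation change differed between Zmpste24-/- and wild type lungs in the test of the difference itself (limma, n = 3 per group). Nr4a1 differed by 2.44 on the log2 scale, Ier2 by 1.31 and Ier5 by 1.10, each as the change in Zmpste24-/- lungs minus that in wild type lungs. Without wild type baseline array 2, which stood high in liver transcripts, Ier5 alone of the 3 passed. Nr4a1 was also the gene whose 2 changes had opposite signs, 1.77 ± 0.27 in Zmpste24-/- lungs and -0.67 ± 0.27 in wild type lungs, the second of which did not pass.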

How the results depend on the processing

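The counts of early genes that rose were steady for 4 comparisons: with 1 array left out they were 8 to 9 for ventilation in Zmpste24-/- lungs, 3 for ventilation in wild type lungs, 9 to 10 for genotype under ventilation and 0 for genotype at baseline. For the difference of the changes, 3 in the reported fit, the count was 1 to 5 with 1 array left out and 5 with genes under the median left out or with array weights. Many of these alternatives could hardly move a gene's value. Each member has 1 probe, so the mean over probes kept its values. Leaving out an array outside a comparison of 2 groups kept the change and altered only the shared spread. Of 1035 single-gene values under alternatives, these included, 992 kept their direction and side of the threshold, 22 no longer passed, 19 newly passed and 2 turned sign. The 2 were baseline genotype differences that never passed, Egr2 (-0.079 to 0.31 with 1 array left out) and Ier5 (-6.6e-04 to 0.14). The replicate block changed no call among the 10 genes, and over all genes it took the count higher for the difference of the changes to 32, against 59 without it. Other counts over all genes, which set the background, moved more. For that difference the higher and lower genes numbered 59 and 11 in the reported fit, 114 and 38 with genes under the median left out, 20 and 6 with quantile normalization, 121 and 43 with array weights, and 7 to 87 and 0 to 31 with 1 array left out, and the lower ones 20 with genes under the 25th percentile left out and 28 with an intensity trend. With only the 2 groups fitted, ventilation in wild type lungs gave 495 higher and 428 lower (815 and 782 as reported, 391 to 827 and 408 to 771 with 1 array left out), and genotype at baseline gave 314 higher (488 as reported, 257 to 529, and 389 to 954 lower, with 1 array left out). Ventilation in Zmpste24-/- lungs gave 1049 to 1759 lower with 1 array left out (1669 as reported). With array medians subtracted, 1587 genes were higher and 987 lower for genotype under ventilation (1046 and 1349 as reported, 628 to 1093 and 735 to 1517 with 1 array left out), and 2380 higher and 1281 lower for ventilation in Zmpste24-/- lungs (1972 and 1669 as reported). At baseline, quantile normalization gave 657 higher and 776 lower genes for genotype (488 and 911 as reported). The causes were not tested. With no background level set, the size of changes near the array medians, as for Egr3, is uncertain.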
